A study of Saccharomyces cerevisiae with 4 samples.

Results

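The autophagy genes are the 31 budding yeast genes whose products build the autophagosome, load it with cargo or empty it in the vacuole. They were taken by name, as the *ATG* genes *ATG1* to *ATG5*, *ATG7* to *ATG23*, *ATG26*, *ATG27*, *ATG29* and *ATG31* to *ATG34* together with *VPS30*, which encodes Atg6, and *SNX4*, which encodes Atg24. Each of the 31 was found on the array by its open reading frame name, with 1 probe per gene among 6256 gene probes, and all 31 were measured in all 3 replicates, as were 6254 genes in all. No rule on expression values was used to choose them, but the choice was made with earlier results of these data known.

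In autophagy, a double membrane grows around a portion of cytoplasm or a chosen cargo, closes, and fuses with the vacuole, where the content is broken down and reused. Cells growing on rich medium keep the pathway low through the TORC1 kinase, and starvation for nitrogen, carbon or amino acids raises both the activity of the Atg proteins and the transcription of several of their genes, *ATG8* above all. A part of the machinery also runs in growing cells as the cytoplasm-to-vacuole targeting (Cvt) pathway, which delivers vacuolar hydrolases such as aminopeptidase I with the help of a cargo receptor. The core genes encode the Atg1 kinase complex, the Atg9 vesicles, a phosphatidylinositol 3-kinase complex, the lipid-binding Atg2 and Atg18 proteins, and a pair of ubiquitin-like conjugation systems that attach Atg12 to Atg5 and Atg8 to the lipid phosphatidylethanolamine.

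Esl1 and Esl2 are yeast relatives of the metazoan SMG5 and SMG6 proteins, and the arrays asked which transcripts depend on them. The *esl1Δ esl2Δ* mutant carried the deletions *esl1*Δ::KAN and *esl2*Δ::NAT, and the wild-type carried neither. Both were Y52 strains of the W303-1A background with mating type MATa and with *ade2-1*, *can1-100*, *trp1-1*, *ura3-1*, *RAD5* and a *leu2* allele in common, and both were harvested in log phase from rich YPD medium holding 2% glucose, at 30°, without any further treatment or starvation. In each of 3 biological replicates, mutant RNA in Cy5 and wild-type RNA in Cy3 were hybridized to the same Agilent array, and the RNA of replicate 3 was also bound to another array with the dye of each strain swapped, for a total of 4 arrays on the same slide. Whether the replicates came from separate clones is not given in the sources used here, so the spread between them measures the spread between these cultures. Values are log2 ratios of *esl1Δ esl2Δ* over wild-type signal after background correction and loess normalization, so that 1 is a 2-fold higher and −1 a 2-fold lower signal in the mutant, and the value of replicate 3 is the mean of its 2 arrays.

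The deleted genes followed the labels, with log2 ratios of −4.77, −4.33 and −4.41 for *ESL1* (YIL151C) and −3.65, −3.99 and −3.65 for *ESL2* (YKR096W) in replicates 1 to 3. All 7 genes that mark MATa cells were well above background in both strains on all 4 arrays, and 5 of the 7 were lower in *esl1Δ esl2Δ* in all 3 replicates. Of 4 genes that mark MATα cells, the receptor gene *STE3* and the agglutinin gene *SAG1* were well above background on all arrays, whereas the pheromone gene *MF(ALPHA)1* was so on 3 arrays and *MF(ALPHA)2* on 2. Of 8 mitochondrially encoded genes, 7 were well above background on all arrays in the mutant and 5 in the wild-type, and their mean log2 ratios ran from −0.09 to 0.68. The part of these differences in the results was not tested. Replicate 3 stood apart from the others, since the correlation of log2 ratios over all genes, which share arrays and are not independent, was 0.681 between replicates 1 and 2, but 0.102 between replicates 1 and 3 and 0.214 between replicates 2 and 3. Without replicate 3, the mean log2 ratio moved by more than 1.5 times for 22 of the 31 autophagy genes and took the other sign for 11 of them. Of the 31 means, 25 lay within 0.25 of 0, where a small shift is enough for either. These counts were not made over all genes, so nothing particular to the 31 is read from them.

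No autophagy gene was found to change in *esl1Δ esl2Δ* cells. With limma and Benjamini-Hochberg adjustment over all 6254 genes, 0 of the 31 had an adjusted p below 0.05, and the lowest was 0.248. Over all genes 7 passed, or 0.112%, among them the deleted *ESL1* and *ESL2*. With so few calls over all genes, a count of 0 among 31 says little about the set. The mean log2 ratios lay between −0.37 for *ATG11* and 0.50 for *ATG10*, so that 0 of 31 reached 2-fold, against 0.799% of all genes. None reached 1.5-fold in its mean either, where 2.45% of all genes were higher and 1.31% lower by that much. In the RNA of whole cultures, fewer cells with a transcript and less of it per cell cannot be told apart.

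The precision of the means is set by the 3 replicates. The 95% intervals that limma gives had half-widths of 0.25 to 0.68, and the outermost bounds over the 31 genes were −0.90 and 0.94, so that all 31 intervals lay within 2-fold. This held for 29 with the log ratio of the scanner software, where *ATG10* and *ATG33* reached past 2-fold, for 30 with a normexp offset of 0, where *ATG10* did, and for 27 without replicate 1 or without replicate 2. Smaller changes that lie inside the interval of a gene are not excluded for that gene. Without adjustment, limma gave a p below 0.05 for 1 gene with a higher signal in the mutant, *ATG10*, and for 2 with a lower signal, *ATG11* and *ATG32*, where 7.9% of all genes were higher and 5.39% lower at that level. The counts among the 31 genes thus lay near or below the shares of all genes, and none of the 3 passed the adjustment.

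The sign of the ratio was shared by all 3 replicates for 10 of the 31 genes. It was positive for 2, *ATG10* and *ATG14*, against 18.7% of all genes, and negative for 8, against 18.5% of all genes. The 8 were *ATG1*, *ATG11*, *ATG20*, *ATG22*, *ATG26*, *ATG32*, *SNX4* and *VPS30*. The arrays of replicate 3 differed in sign for *ATG14*. For the other 21 genes the replicates disagreed in sign, and for 23 of the 31 the SD between replicates was larger than the size of the mean. The share of all genes with such an SD was not counted. Over the 31 genes the mean log2 ratios had a median of −0.04, where all genes had 0.00.

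**Figure D1:**
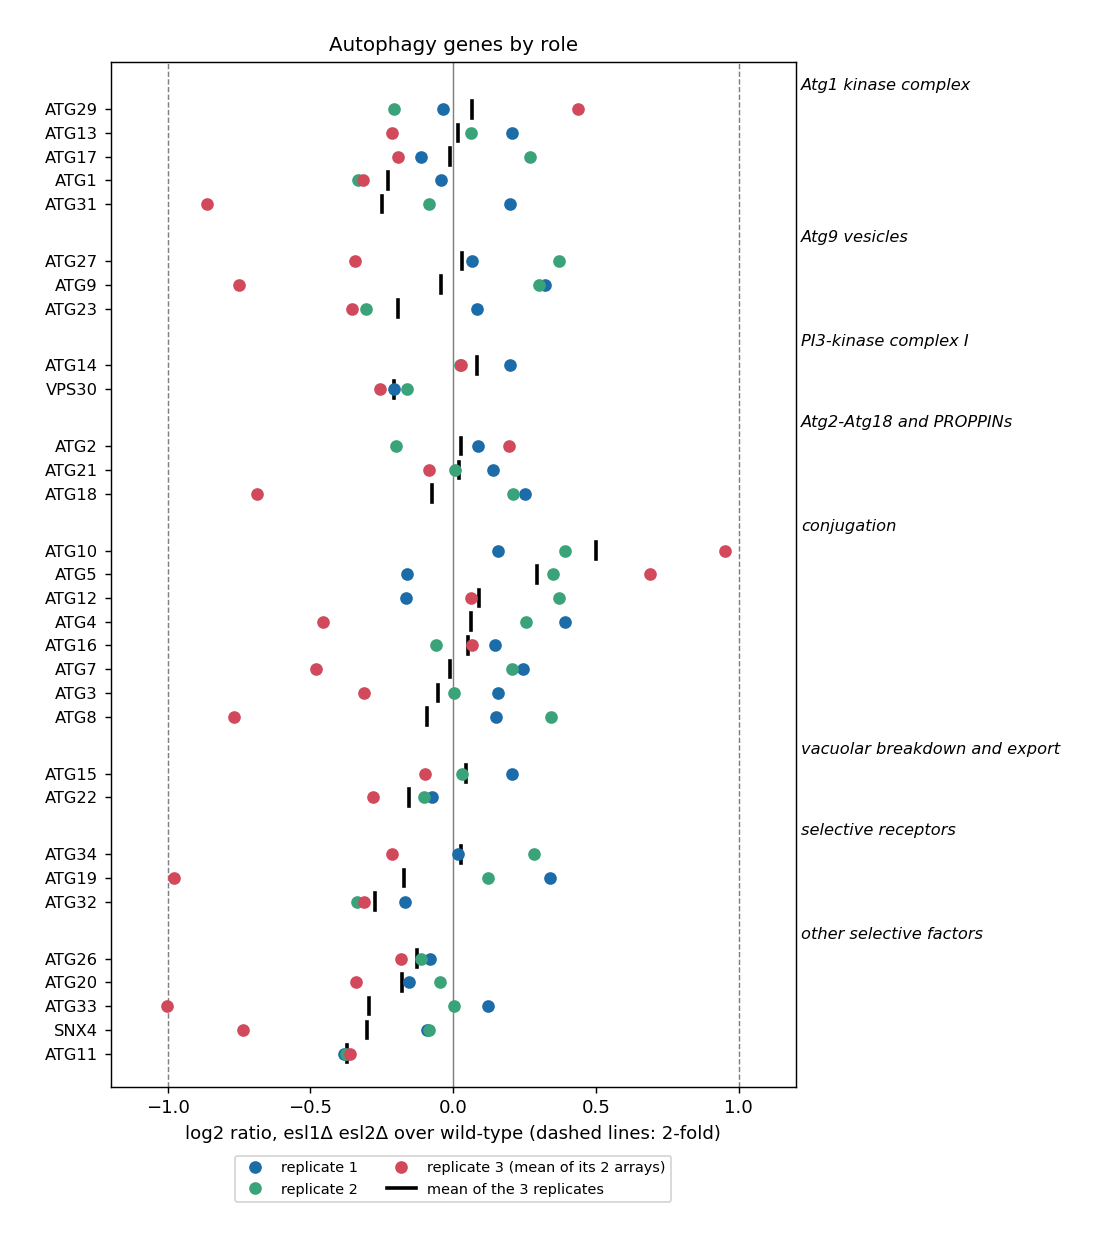
The x axis gives the log2 ratio of *esl1Δ esl2Δ* over wild-type signal for each autophagy gene, grouped by role, with 1 point per replicate and a bar at the mean of the 3 replicates; dashed lines mark 2-fold. The means lie between −0.37 and 0.50, and for many genes the point of replicate 3 lies left of the other points, down to −1.0 for *ATG33*.

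Autophagosome formation starts with the Atg1 complex, which consists of the protein kinase Atg1, its regulator Atg13 and a scaffold of Atg17, Atg29 and Atg31. The mean log2 ratios of the 5 genes ran from −0.25 for *ATG31* to 0.07 for *ATG29*, and none had an unadjusted p below 0.05. The value of *ATG31* comes from replicate 3, without which its mean was 0.06. *ATG1* was lower in the mutant in all 3 replicates (−0.04, −0.33 and −0.31), with a mean of −0.23 ± 0.16 (SD, n = 3; limma adjusted p = 0.459). The first of these values is close to 0, and the limma interval of the mean, −0.52 to 0.06, includes 0.

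The Atg9 vesicles bring the first membrane to the site, with Atg9 as their membrane protein and Atg23 and Atg27 in its transport. The log2 ratios of *ATG9* were 0.32, 0.30 and −0.75 in replicates 1 to 3, and *ATG27* had 0.07, 0.37 and −0.34. Both genes thus took the opposite sign in replicate 3, and their means of −0.04 and 0.03 were 0.31 and 0.22 without it. *ATG23* had a mean of −0.19 ± 0.24 (SD, n = 3).

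In the phosphatidylinositol 3-kinase complex, which marks the growing membrane with a phosphorylated lipid, *VPS30*, the yeast homolog of Beclin 1, had log2 ratios of −0.21, −0.16 and −0.26. It was lower in the mutant in all 3 replicates by nearly the same amount, but with a mean of −0.21 ± 0.05 (SD, n = 3) its limma adjusted p was 0.443. *ATG14*, which directs the complex to autophagy, had 0.20, 0.03 and 0.03, and its probe was well above background on only 2 of the 4 arrays in each strain. The replicate 3 value of *ATG14* averages −0.12 on the first array and 0.18 on the dye swap, where neither strain was well above background. Of the proteins that bind this lipid or work beside it, the lipid transfer protein gene *ATG2* had a mean of 0.03, *ATG21* of 0.02 and *ATG18* of −0.07. The ratios of *ATG18*, 0.25, 0.21 and −0.69, again set replicate 3 apart, and the mean was 0.23 without it.

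The conjugation genes encode an activating enzyme, Atg7, the conjugating enzymes Atg3 and Atg10, the protease Atg4, which prepares and recycles Atg8, and the substrates and partners Atg5, Atg8, Atg12 and Atg16. Their 8 mean log2 ratios ran from −0.09 for *ATG8* to 0.50 for *ATG10*. Only *ATG10* was higher in all 3 replicates, and no conjugation gene was lower in all 3. *ATG3* (mean −0.05), *ATG4* (0.06), *ATG7* (−0.01) and *ATG16* (0.05) all averaged within 0.1 of no difference, but without replicate 3 *ATG4* averaged 0.32 and *ATG7* 0.23. The *ATG16* probe was well above background on 3 arrays in the mutant and 2 in the wild-type.

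*ATG10* (YLL042C), whose product conjugates Atg12 to Atg5, had the highest mean of all 31 genes. Its log2 ratio was 0.16 in replicate 1, 0.39 in replicate 2 and 0.95 in replicate 3, where the array and its dye swap gave 0.95 each. All values are positive, but they span a wide range, and the mean of 0.50 ± 0.41 (SD, n = 3), or 1.41-fold, had a limma adjusted p of 0.327. The normalized log2 signals were 9.16, 9.36 and 8.04 in *esl1Δ esl2Δ* and 9.0, 8.97 and 7.09 in the wild-type in replicates 1 to 3. Both strains were thus dimmest in replicate 3, which gave the largest ratio. On its first array the wild-type spots had a median intensity of 97.0 over a local background of 23.3, which was not well above background, whereas the mutant spots had 305 over 46.5. With the log ratio of the scanner software the mean was 0.77, and without replicate 3 it was 0.27.

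*ATG8* (YBL078C) encodes the ubiquitin-like protein that is anchored in the autophagosome membrane and binds the cargo receptors. Its log2 ratio was 0.15 in replicate 1, 0.34 in replicate 2 and −0.77 in replicate 3, with −0.71 on the first array of replicate 3 and −0.82 on the dye swap. The normalized log2 signals in replicates 1 to 3 were 11.50, 11.04 and 11.36 in *esl1Δ esl2Δ*, and 11.35, 10.70 and 12.13 in the wild-type. The ranges of the strains overlapped, and the highest value was that of the wild-type in replicate 3. The mean of −0.09 ± 0.59 (SD, n = 3; limma adjusted p = 0.890) carries an interval of −0.68 to 0.50. It was 0.25 without replicate 3, so that the sign of the mean depends on that replicate.

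The other conjugation genes with the highest means were *ATG5*, which encodes the acceptor of Atg12, and *ATG12* itself. *ATG5* (YPL149W) had log2 ratios of −0.16, 0.35 and 0.69, and *ATG12* (YBR217W) had −0.16, 0.37 and 0.06. Both were lower in the mutant in replicate 1 and higher in the others, with means of 0.29 ± 0.43 and 0.09 ± 0.27 (SD, n = 3 each). The replicate 3 value of *ATG12* averages 0.17 on the first array and −0.04 on the dye swap. Without replicate 3 the mean of *ATG5* was 0.10. The *ATG5* probe was printed as 12 spots. The median SD between spots of an autophagy probe was between 0.0356 and 0.0416 per array, while the SD between replicates ran from 0.01 for *ATG11* to 0.71 for *ATG19*.

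In the vacuole, Atg15 is the lipase that opens autophagic bodies and Atg22 takes part in the export of amino acids. *ATG15* had log2 ratios of 0.21, 0.03 and −0.10 and *ATG22* of −0.07, −0.10 and −0.28. *ATG22* was lower in the mutant in all 3 replicates, with a mean of −0.15 ± 0.11 (SD, n = 3) and a limma adjusted p of 0.573.

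The selective receptors tie a cargo to Atg8 and Atg11. *ATG19* (YOL082W) encodes the Cvt receptor for aminopeptidase I and α-mannosidase, and its log2 ratio was 0.34 in replicate 1, 0.12 in replicate 2 and −0.98 in replicate 3, with −0.86 and −1.09 on the arrays of replicate 3. The normalized log2 signals were 12.16, 12.01 and 12.18 in *esl1Δ esl2Δ*, and 11.82, 11.89 and 13.15 in the wild-type. The mutant thus varied little, while the wild-type of replicate 3 lay above every other sample. The mean was −0.17 ± 0.71 (SD, n = 3; limma adjusted p = 0.812) with all replicates and 0.23 without replicate 3.

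*ATG34* (YOL083W), the paralog of *ATG19* and its direct neighbor in the R64 annotation, encodes a receptor for α-mannosidase in starved cells. Its log2 ratios of 0.02, 0.28 and −0.21 gave a mean of 0.03 ± 0.25 (SD, n = 3; limma adjusted p = 0.943). *ATG34* followed *ATG19* in sign in every replicate but at smaller sizes in replicates 1 and 3.

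*ATG32* (YIL146C) encodes the mitochondrial outer membrane receptor for mitophagy and was the only receptor gene lower in the mutant in all 3 replicates. Its log2 ratios were −0.17, −0.34 and −0.31, with −0.45 and −0.18 on the arrays of replicate 3. The normalized log2 signals were 10.16, 9.82 and 10.02 in *esl1Δ esl2Δ*, and 10.33, 10.16 and 10.34 in the wild-type, so that the ranges met at 10.16 while each pair on an array had the lower value in the mutant. The mean of −0.27 ± 0.09 (SD, n = 3), or 0.83 of the wild-type signal, had an unadjusted limma p of 0.0434 and an adjusted p of 0.360. In the R64 annotation, *ATG32* is separated from the deleted *ESL1* by 4 genes, *MCM10*, *MLP2*, *RPL40A* and *SLN1*.

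*ATG11* (YPR049C) encodes the scaffold that receives the receptors with their cargo and passes them to the Atg1 kinase. It had the lowest mean of the 31 genes and the smallest spread, with log2 ratios of −0.38, −0.38 and −0.36 in replicates 1 to 3, and of −0.40 and −0.32 on the arrays of replicate 3. The normalized log2 signals were 11.06, 11.02 and 10.91 in *esl1Δ esl2Δ*, and 11.44, 11.40 and 11.27 in the wild-type, with no overlap of the strains. How many of all genes lack such overlap was not counted. The mean was −0.37 ± 0.01 (SD, n = 3), or 0.77 of the wild-type signal, with a limma interval of −0.62 to −0.12. Its unadjusted p was 0.0113 and its adjusted p 0.248, since limma does not take a spread this small over 3 replicates at face value but moves it toward that of other genes. Without replicate 3 the mean was −0.38 and the adjusted p 0.0692, while without replicate 1 the adjusted p was 0.732 and without replicate 2 it was 0.997.

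*ATG11* was placed in a group of 5 genes listed as other selective factors, a label that need not give the main role of each. Of these, the sorting nexin genes *SNX4* and *ATG20* and the sterol glucosyltransferase gene *ATG26* were also lower in the mutant in all 3 replicates. The part of *ATG26* in peroxisome degradation is known from *Komagataella phaffii*. *SNX4* (YJL036W) had log2 ratios of −0.09, −0.08 and −0.74, and its mean of −0.30 ± 0.37 (SD, n = 3) rests mostly on replicate 3, without which it was −0.09. *ATG20* had −0.16, −0.05 and −0.34, with a mean of −0.18 ± 0.15, and *ATG26* had −0.08, −0.11 and −0.18, with a mean of −0.13 ± 0.05 (SD, n = 3 each). *ATG33* (YLR356W), which encodes a mitochondrial outer membrane protein used in mitophagy, had 0.12, 0.00 and −1.0, so that its mean of −0.29 ± 0.62 comes from replicate 3 alone and was 0.06 without it. Of this group of 5 genes, 4 were lower in all 3 replicates, where 18.5% of all genes were, and the median of their means was −0.29, the value of *ATG33*. Without replicate 3 the median was −0.10.

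The receptors were set against the conjugation genes within each replicate, as the mean log2 ratio of the 3 receptor genes less that of the 8 conjugation genes. The receptor genes averaged 0.06 in replicate 1, 0.02 in replicate 2 and −0.50 in replicate 3, and the conjugation genes 0.12, 0.23 and −0.03. The difference was −0.05, −0.21 and −0.47, which is negative in 3 of 3 replicates with a mean of −0.24 ± 0.21 (SD, n = 3). An exact sign test over 3 replicates cannot give a p below 0.25, and none is given. Without replicate 3 the mean difference was −0.13. With only probes well above background on all arrays, which leaves out *ATG10* and *ATG16*, it was −0.19 ± 0.13 (SD, n = 3). The order did not hold gene by gene, since *ATG8* at −0.77 lay below *ATG32* and *ATG34* in replicate 3, and *ATG19* at 0.34 lay above all conjugation genes but *ATG4* in replicate 1.

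**Figure D2:**
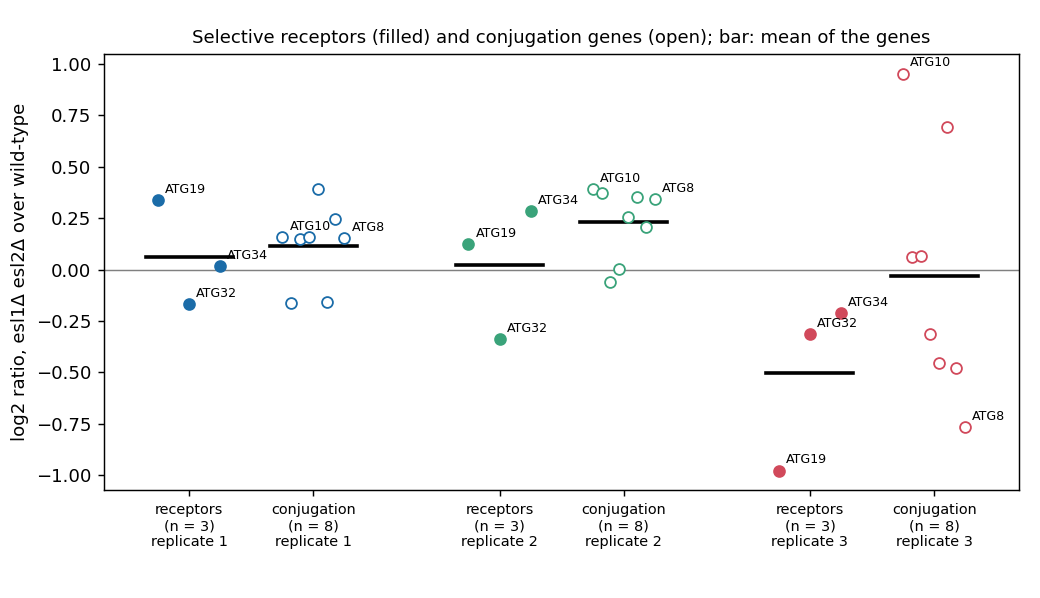
The y axis gives the log2 ratio of *esl1Δ esl2Δ* over wild-type signal of the 3 receptor genes (filled points) and the 8 conjugation genes (open points) in each replicate, with a bar at the mean of the genes. The receptor bar is below the conjugation bar in each replicate, by 0.05, 0.21 and 0.47, while the points overlap. The conjugation bar includes *ATG10* and *ATG16*, whose probes were not well above background on all arrays.

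The replicates were also described separately. In replicate 1, 0 of 31 autophagy genes were 1.5-fold different in either direction, against 6.86% of all genes, and in replicate 2 also 0 of 31, against 11.4% of all genes. In replicate 3, 7 of 31 were at least 1.5-fold lower in *esl1Δ esl2Δ*, against 3.92% of all genes, and 2 were at least 1.5-fold higher, against 5.98% of all genes. The 7 were *ATG33* (−1.0), *ATG19* (−0.98), *ATG31* (−0.86), *ATG8* (−0.77), *ATG9* (−0.75), *SNX4* (−0.74) and *ATG18* (−0.69), and the 2 were *ATG10* (0.95) and *ATG5* (0.69). These genes come from 6 of the 8 role groups. The count per replicate was made after the data had been seen, and a single culture pair has no replicate check.

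The shift of replicate 3 took in most of the set. Of the 31 log2 ratios, 24 were below 0 in replicate 3, against 12 in replicate 1 and 13 in replicate 2. Among all 6254 genes, 3120 were below 0 in replicate 3, 3113 in replicate 1 and 3184 in replicate 2. The medians of the autophagy genes were 0.09, 0.01 and −0.31 in replicates 1 to 3, while those of all genes were 0.00, −0.01 and 0.00. Their SD was 0.185 and 0.234 in replicates 1 and 2, below the 0.338 and 0.410 of all genes, and 0.443 in replicate 3, above the 0.383 of all genes.

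**Figure D3:**
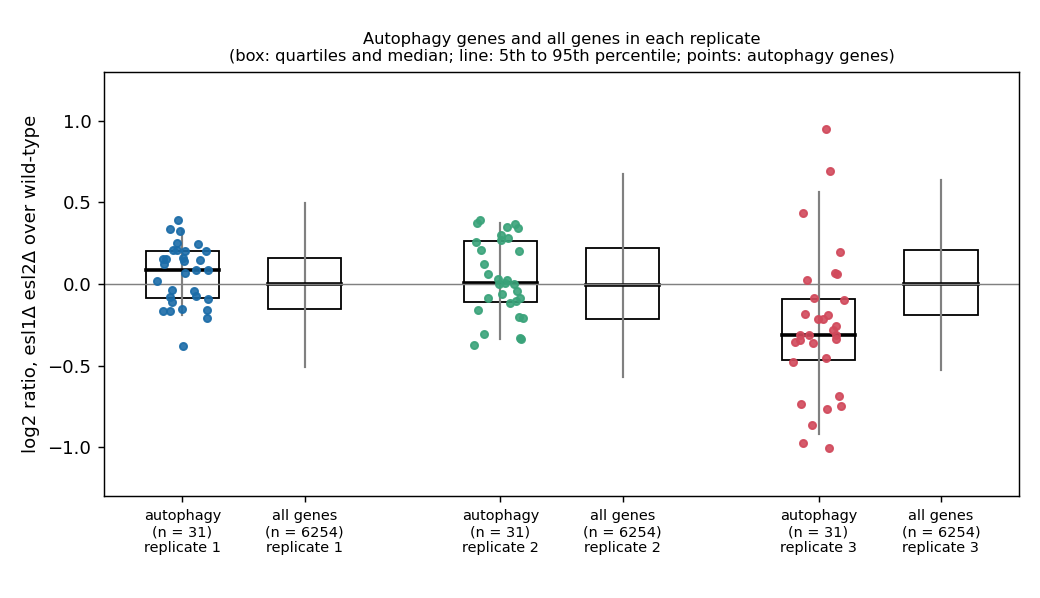
The y axis gives the log2 ratio of *esl1Δ esl2Δ* over wild-type signal of the 31 autophagy genes (points and left box) and of all 6254 genes (right box) in each replicate; boxes show quartiles and median, lines the 5th to 95th percentile. The autophagy box of replicate 3 lies below that of all genes, with a median of −0.31.

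Both arrays of replicate 3 gave the same picture with exchanged dyes. Counted on a single array, 9 of 31 genes were at least 1.5-fold lower on the first array, against 4.65% of all genes, and 8 on the dye swap, against 4.37% of all genes, and 29 of 31 had the same sign on both. How many of all genes share the sign on both was not counted. Across the 31 genes, which share the arrays and the RNA, the correlation between both arrays was 0.886, where it was 0.844 over all genes. The median difference between both arrays was 0.14, with the largest, 0.49, for *ATG20*. Between replicates the correlation across the 31 genes was 0.390 for replicates 1 and 2, −0.275 for replicates 1 and 3 and 0.092 for replicates 2 and 3.

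The signal of each strain in replicate 3 was also set against that of the same strain in the other replicates. Of the 7 genes that were at least 1.5-fold lower there, the mutant of replicate 3 lay above both other mutant samples for 3, *ATG33*, *ATG18* and, by 0.02, *ATG19*, and between them for the other 4. The wild-type of replicate 3 lay above both other wild-type samples for all 7, by 0.57 for *SNX4* to 1.70 for *ATG33* on the log2 scale. These genes were chosen for a low ratio in replicate 3, which itself selects a high wild-type signal there. Of all 245 genes at least 1.5-fold lower in replicate 3, the mutant was the highest of the 3 for 47.8% and the wild-type for 83.3%, so nothing particular to the 7 is read from these counts. Among all 31 autophagy genes, the mutant of replicate 3 was the highest for 7 and the wild-type for 16, where the shares of all genes were 32.8% for the mutant and 37.7% for the wild-type. When each channel was scaled by its own median instead, the mutant was the highest for 11 of the 31 and the wild-type for 16, where the shares of all genes were 46.7% for the mutant and 50.3% for the wild-type.

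*ATG33* had normalized log2 signals of 11.19, 10.36 and 11.77 in *esl1Δ esl2Δ* and 11.07, 10.36 and 12.78 in the wild-type. *ATG18* had 11.36, 11.27 and 12.05 in the mutant, against 11.10, 11.06 and 12.74 in the wild-type. Both strains were thus brightest in replicate 3 for these genes, the wild-type more so. *ATG31* had 10.54, 9.85 and 10.21 in the mutant, against 10.34, 9.93 and 11.07 in the wild-type, and only the wild-type was brightest in replicate 3. *SNX4* had 10.67, 11.24 and 11.16 in the mutant, against 10.76, 11.33 and 11.89 in the wild-type, and *ATG9* had 11.16, 10.24 and 10.77 in the mutant, against 10.84, 9.94 and 11.52 in the wild-type. These comparisons between arrays were chosen after the data had been seen.

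**Figure D4:**
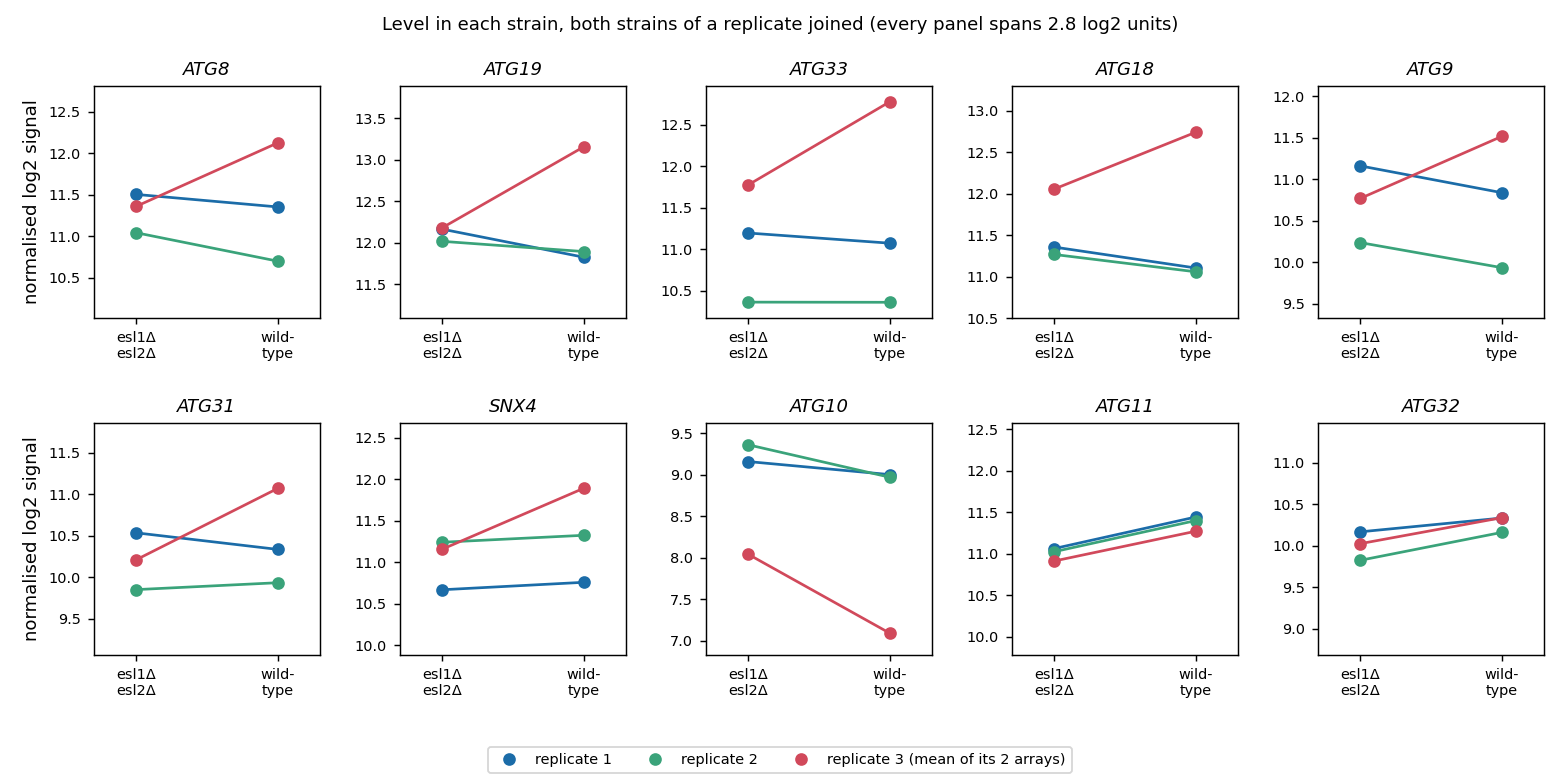
The y axis of each panel gives the normalized log2 signal of a gene in *esl1Δ esl2Δ* (left) and wild-type (right), with the samples of a replicate joined by a line; all panels span the same range. For *ATG8*, *ATG19*, *ATG33*, *ATG18*, *ATG9*, *ATG31* and *SNX4* the highest point is the wild-type of replicate 3, whereas the lines of *ATG11* run in parallel, with the mutant lower by 0.36 to 0.38.

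Genes around the core pathway were described by lists of 67 further genes, for partners of the lipid kinase, receptors and *ATG* genes that were named later, selective cargo, vacuolar hydrolases, vacuole fusion, TORC1 and its inhibitor complex, upstream kinases, regulators of *ATG* transcription or mRNA, and membrane supply. With limma, 0 of the 67 had an adjusted p below 0.05 and 0 reached 1.5-fold in their mean. The median of their means was −0.03, with 9 higher and 13 lower in the mutant in all 3 replicates, where 18.7% and 18.5% of all genes were. Without adjustment, 2 had a p below 0.05 with a higher and 4 with a lower signal in the mutant, where 7.9% and 5.39% of all genes did. These counts lie near or below the shares of all genes.

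The 6 were named after their values had been seen. *ATG39*, a receptor for the autophagy of the nuclear envelope, had log2 ratios of 0.55, 0.38 and 0.45, all well above 0, with a mean of 0.46 ± 0.08 (SD, n = 3; limma adjusted p = 0.206). *LST8*, a subunit of both TOR complexes, had 0.21, 0.70 and 0.68, with a mean of 0.53 ± 0.28 (SD, n = 3; limma adjusted p = 0.248). The lower ones were the proteinase B gene *PRB1* (mean −0.36), the carboxypeptidase S gene *CPS1* (−0.28), the nitrogen-responsive GATA factor gene *GAT1* (−0.28) and *RPH1* (−0.27), whose product represses *ATG* genes. None of the 4 reached 1.5-fold in its mean, and their limma adjusted p ran from 0.334 to 0.362. On the first array of replicate 3, 9 of the 67 genes were at least 1.5-fold lower, against 4.65% of all genes, and 3 on the dye swap, against 4.37%. The median of the 67 genes in replicate 3 was −0.06. By list it ran from −0.45 for vacuolar hydrolases and −0.43 for selective cargo to 0.08 for TORC1 and its inhibitor complex. In the mean of both arrays of replicate 3, 2 of the 67 genes were at least 1.5-fold lower, against 3.92% of all genes. The Cvt cargo gene *AMS1*, which encodes α-mannosidase, had −1.06 and the endoplasmic reticulum receptor gene *ATG40* had −0.85, and in replicates 1 and 2 *AMS1* had −0.10 and 0.07 and *ATG40* had 0.25 and 0.05.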

How the data were processed

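For each sample the authors labeled 500 ng of RNA. The intensities they deposited are medians of each spot and of its local background, not normalized, from Feature Extraction 10.1.1.1. The deposited files also hold a log10 ratio (Cy5 over Cy3) made by that software, which was used as an alternative. The series table repeats it and was not used.

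Files were read with R 4.3.3 (package data.table, version 1.17.8). With limma 3.58.1, intensities were corrected by normexp (offset 50) and normalized by loess within each array. The 536 control spots per array and 291 to 486 outlier spots were left out, and the spots of a probe were averaged. Symbols came from a RefSeq table (assembly R64), which matched 5756 of 6256 probes; the array design is older, so no coordinates are given. The ratios of the dye swap were turned in sign and averaged with the first array of replicate 3. Each gene then had 3 ratios, and limma (lmFit, then eBayes) tested their mean for a difference from 0, two-sided, with Benjamini-Hochberg adjustment over 6254 genes and a threshold of 0.05; the steps were tested on simulated data. Signals per strain were taken after Aquantile scaling between arrays. Background was 22 to 49.5 against median intensities of 1660 to 5186, the share of gene spots well above background was 92.4% to 98.0%, and no spot was saturated. Of the 31 probes, 28 were well above background in both strains on all arrays; the exceptions were *ATG10*, *ATG14* and *ATG16*. The number of arrays limits the precision.

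The genes, role groups and lists were chosen with earlier results of these data known. Values by replicate are given in full for *ATG8*, *ATG10*, the receptors, the 3 highest and 3 lowest means and any gene with an unadjusted p below 0.05; the other autophagy genes whose values by replicate are given (*ATG1*, *ATG9*, *ATG14*, *ATG15*, *ATG18*, *ATG20*, *ATG22*, *ATG26*, *ATG27*, *ATG31* and *VPS30*) were added after their values had been seen, as were the genes named from the wider lists. Pairing comes from the array itself, since each ratio holds both strains of a replicate. Alternatives were the software's log ratio, uncorrected background, offset 0 in normexp, centring on the median, bright probes only, medians of spots, outlier spots kept, replicate 3 from either of its arrays alone, the 4 arrays with a dye term, separate channels without the replicate block, a 1.5-fold threshold and each replicate left out.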

Additional observations from a re-analysis of the deposited data

How the results depend on the processing

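No autophagy gene was called by limma, and none reached 2-fold in its mean, under any alternative run. The number with a positive ratio in all replicates was 2, but 1 with the software's log ratio, with a normexp offset of 0, with median centring and without the dye swap, and 0 among probes well above background on all arrays. With 1 replicate left out, only 2 signs had to match. Without replicates 1, 2 and 3 in turn, the number higher was 4, 4 and 15 of 31, against 25.6%, 24.3% and 36.7% of all genes. The number lower was 10, 9 and 9, against 26.3%, 24.0% and 37.4% of all genes. Under these settings the median of the autophagy genes ran from −0.15 to 0.08 and the receptor mean from −0.24 to 0.04. The conjugation mean ran from 0.04 to 0.17, and the difference of receptors less conjugation genes from −0.34 to −0.13. Means with each replicate left out in turn were made only for *ATG5*, *ATG8*, *ATG10*, *ATG11*, *ATG12*, *ATG19*, *ATG32*, *ATG33*, *ATG34* and *SNX4*. Among these, the mean ratio took both signs for *ATG8* (−0.31 to 0.25), *ATG12* (−0.050 to 0.22), *ATG19* (−0.43 to 0.23), *ATG33* (−0.50 to 0.062) and *ATG34* (−0.10 to 0.15). Other autophagy genes turned sign too, since without replicate 3 alone 11 of the 31 means did. Without replicate 3, limma called 602 genes (9.63%), and 0 of the 31. As separate channels with no replicate block, limma called 0 of the 31, with a median of −0.04. The count of genes at least 1.5-fold lower in replicate 3, chosen after seeing the data, was 7 to 9 under the alternatives that kept it, and the intervals under other settings were likewise added after seeing the data. Signal over background limits *ATG10*, *ATG14* and *ATG16*. With 3 replicates the limma intervals had half-widths of 0.25 to 0.68, and changes inside the interval of a gene are undecided.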
